A study of Mus musculus with 6 samples.

Results

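The dual specificity phosphatases (DUSPs) studied here are 10 genes: Dusp22, whose product is the enzyme that BML-260 is used to inhibit, and 9 relatives, Dusp1, Dusp3, Dusp6, Dusp7, Dusp8, Dusp10, Dusp11, Dusp16 and Dusp26. They were chosen by gene symbol in the TPM tables, which list 16800 genes, and joined by gene identifier to the count table, which lists 45777 genes. All 10 were found in both. The questions were where Dusp22 stands among its family in tibialis anterior (TA) muscle, and whether any of these transcripts differed between mice given BML-260 and mice given vehicle.

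RNA-Seq was carried out on the TA muscle of 6 aged male C57BL/6J mice, 24 months old per the labels. The methods of the paper give an age range that starts at 24 months, and its results text gives an older age. Vehicle (5% DMSO and 5% Tween 80) was injected into 3 of them and BML-260 at 5 mg/kg into the other 3, intraperitoneally, every 24 h for 4 weeks. No genotype was altered and no untreated or young group is part of this series, so each comparison is between BML-260 and vehicle in old muscle. Each library came from total RNA of the whole muscle, which holds fibers and all other cells of the tissue.

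Dual specificity phosphatases remove phosphate from both tyrosine and serine or threonine residues. The typical members, the MAP kinase phosphatases (MKPs), carry a kinase-binding domain and switch off ERK, JNK or p38 by dephosphorylating their activation loop. The atypical members are smaller, lack that domain, and act on a wider range of substrates that includes RNA. DUSP22 is an atypical member and is known for raising, not lowering, JNK activity in cells. Several MKP genes are themselves switched on by the kinases that their products silence, which makes them feedback regulators.

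The starts of the genes differed in sequence features. Promoter sequences from RefSeq (build GRCm38.p6, the 250 bases before the annotated start) were held for 9 of the 10 genes, all except Dusp26. The sequence before Dusp22 had a GC content of 77.6% and 38 CpG dinucleotides, where the medians over 32851 mouse promoters were 52.4% and 6. Among the 9 genes the GC content ran from 54.0% (Dusp11) to 77.6%, and the number of CpG dinucleotides from 13 (Dusp11) to 38. All 9 genes, which are protein coding, thus lay above both medians. The promoters behind the medians were not selected by gene type. Capitals mark matches on either strand to the cyclic AMP response element TGACGTCA, the palindrome bound by CREB and ATF factors, and to the GC box GGGCGG, bound by Sp1. These letters did not overlap each other. Dusp22 is shown as the drug target, Dusp1 and Dusp8 as the 2 members with the palindrome, and Dusp10 as the member whose counts were most like those of Dusp22. Each is written 5′ to 3′ on the strand of its gene. The 2 annotations used here place some starts differently: GENCODE vM21, which gives the gene coordinates below, counts the last 60 bases of the Dusp22 window and the last 47 of the Dusp1 window as exon, and these bases entered the counts of letters but are not printed. The GC box of Dusp22 lies in the bases not printed, and 1 of the 3 GC boxes of Dusp1 spans the edge of the exon and is not marked. The windows of Dusp8 and Dusp10 lie within the longer GENCODE genes but hold no exon of them.

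Dusp22 (chr13:30659809-30659998, plus strand): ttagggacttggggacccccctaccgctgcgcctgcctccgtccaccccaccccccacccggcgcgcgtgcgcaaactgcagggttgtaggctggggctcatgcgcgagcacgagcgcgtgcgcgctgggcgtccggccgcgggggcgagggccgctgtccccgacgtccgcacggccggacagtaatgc
Dusp1 (chr17:26508520-26508722, minus strand): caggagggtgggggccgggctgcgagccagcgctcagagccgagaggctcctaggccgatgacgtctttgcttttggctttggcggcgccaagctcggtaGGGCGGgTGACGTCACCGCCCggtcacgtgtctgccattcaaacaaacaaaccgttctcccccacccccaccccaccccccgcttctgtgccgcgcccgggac
Dusp8 (chr7:142095285-142095534, minus strand): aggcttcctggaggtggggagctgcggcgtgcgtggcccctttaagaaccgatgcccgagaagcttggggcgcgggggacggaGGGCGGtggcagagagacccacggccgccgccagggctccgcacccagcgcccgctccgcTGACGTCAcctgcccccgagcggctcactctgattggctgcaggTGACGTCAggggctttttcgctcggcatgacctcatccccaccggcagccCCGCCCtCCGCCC
Dusp10 (chr1:184034131-184034380, plus strand): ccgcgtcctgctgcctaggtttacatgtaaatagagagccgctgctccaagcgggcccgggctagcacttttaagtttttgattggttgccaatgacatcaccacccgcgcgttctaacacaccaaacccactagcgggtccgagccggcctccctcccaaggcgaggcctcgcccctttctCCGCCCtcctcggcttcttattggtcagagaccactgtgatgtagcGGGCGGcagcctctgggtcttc

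The palindrome occurred once before Dusp1 and 2 times before Dusp8, and is found in 1.55% of mouse promoters of this length. The GC box was present in 6 of the 9 genes and in 32.7% of all promoters. The set of all promoters was not matched to the 9 windows in GC content. The AP-1 site TGANTCA, present in 6.75% of promoters, the FOXO site TGTTTAC, present in 3.17%, and TATAAA, present in 12.4%, had no match in any of the 9 windows. Nor had the CArG box, found in 1.47% of promoters, or the glucocorticoid response element, found in 0.00913%. CCAAT was present in 6 of the 9 windows and in 33.8% of promoters, and a MEF2 site in 1 window, that of Dusp16, and in 2.92%. A match is a description of letters and shows no binding, and a missing match says only that these letters are not in this window.

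Before the levels, the libraries need a short account. They held between 39522890 and 56998875 counts. Vehicle replicate 3 stood apart on the first principal component (74.9% of the variance), with a score of 33.7 where the other 5 libraries lay between -10.6 and -2.40. Muscle fiber markers such as Acta1 and Ckm were abundant in every library, with a summed TPM of 84486 to 109695 with vehicle and 98200 to 120843 with BML-260. Vehicle replicate 3 had the lowest of these sums and was the lowest library in normalized counts for 7 of the 8 markers. In the fit over all 16188 tested genes, 7 of 8 macrophage markers were lower with BML-260 at a fold of 1.3 and unadjusted p under 0.05, with a summed TPM of 63.1 to 244 against 40.3 to 47.6. All 4 tested neutrophil markers of 6 listed were lower too, with a summed TPM of 23.8 to 801 against 6.70 to 12.1. Vehicle replicate 3 was the highest library in both lists, and the neutrophil marker Ly6g, not tested, had 32 counts there and 0 in the other 5 libraries. Erythroid markers were lower in 3 of 5 genes, with 1949 to 8752 summed TPM with vehicle and 1619 to 2162 with BML-260. A single gene was lower in each of the adipocyte markers (1 of 4 tested), fibroblast markers (1 of 6) and satellite cell markers (1 of 5), and 0 were lower or higher among the 6 endothelial, 6 Schwann cell and 8 muscle fiber markers and the 1 lymphocyte marker tested. Of all tested genes 4.86% were lower. Vehicle replicate 3 was also the highest library for all 4 adipocyte, all 6 Schwann cell and all 5 erythroid markers, with a summed TPM of 189 for the adipocyte markers against 8.41 to 11.6 in the other 5 libraries and of 102 for the Schwann cell markers against 21.6 to 32.6. Without it, 6 macrophage, 4 neutrophil, 2 erythroid, 2 Schwann cell, 1 fibroblast, 1 satellite cell and 0 adipocyte markers passed in either direction, where 3.98% of all tested genes did. The median log2 fold change of the Schwann cell markers was -0.30 with all libraries and 0.58 without vehicle replicate 3. In bulk muscle, fewer cells of a type and less RNA per cell cannot be told apart.

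Dusp22 was one of the more abundant DUSP transcripts of TA muscle. TPM expresses each transcript as a share of its library, scaled for transcript length, and is the scale used here for levels between genes. The TPM of Dusp22 (gene identifier 105352, chromosome 13, 30659999 to 30711231 on the plus strand of GRCm38, GENCODE vM21) was 35.1, 36.9 and 32.7 in vehicle replicates 1, 2 and 3, and 32.0, 35.1 and 25.6 in BML-260 replicates 1, 2 and 3. On this scale the 6 values lay close together, with a mean of 32.9 ± 3.98 (SD, n = 6), and the groups overlapped. In normalized counts, described below, Dusp22 spread further, from 916 to 1779. Its TPM per count was higher in vehicle replicates 2 and 3 than in the other libraries, and its TPM levels and ranks there include that higher ratio. Dusp22 ranked between 1614th and 2565th of the 16800 genes of the TPM tables, that is within the top 9.61% to 15.3%.

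The gene lists used here named 10 typical and 21 atypical DUSP genes, of which 9 and 15 were in the TPM tables. Among these 24 DUSP genes, pseudophosphatases included, Dusp22 was 6th by mean TPM and between 4th and 6th in each library. It held 6.87% of the summed DUSP TPM on average. Dusp13, a locus that encodes a muscle and a testis phosphatase, was first in the family with a mean of 111 ± 24.2 TPM (SD, n = 6). Dusp3 followed with 51.1 ± 7.15 TPM (SD, n = 6) and, like Dusp13, was above Dusp22 in 6 of 6 libraries. Both are atypical phosphatases, as are Dusp26 (49.0 ± 16.2 TPM, SD, n = 6) and Dupd1 (46.9 ± 30.8 TPM, SD, n = 6), the next in the order.

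The order around Dusp22 was not fixed. Dusp26 was above Dusp22 in 5 of 6 libraries, and Dupd1, which is known as a muscle-enriched DUSP, in 3 of 6. Dusp1 had a higher mean, 35.7 ± 13.0 TPM (SD, n = 6), but was above Dusp22 in only 2 of the 6 libraries, vehicle replicate 3 and BML-260 replicate 3. Dusp27, a pseudophosphatase of striated muscle, came next with 27.0 ± 9.75 TPM (SD, n = 6) and was above Dusp22 in 1 library. Neighbours such as Dusp3 and Dusp26 (3 libraries each way), Dusp16 and Dusp6, or Dusp6 and Dusp7 were likewise not separated by all libraries.

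Below Dusp22, Dusp28 had a mean of 21.0 TPM, the pseudophosphatase Styx one of 18.3, Dusp10 one of 18.1 and Dusp23 one of 12.1. Dusp16 (9.03 TPM), Dusp6 (8.99), Dusp7 (8.76), Dusp11 (8.17) and Dusp8 (4.81) were lower than Dusp22 in 6 of 6 libraries. Among the 10 members the order by mean TPM was therefore Dusp3, Dusp26, Dusp1, Dusp22, Dusp10, Dusp16, Dusp6, Dusp7, Dusp11 and Dusp8. Dusp19, Dusp14 and Dusp12 had means between 4.61 and 5.23 TPM, and Dusp18, Dusp2 and Dusp4 had means between 1.09 and 1.86. Dusp15, the closest relative of Dusp22, was last of the 24 with a mean of 0.216 TPM and between 3 and 56 counts in a library.

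**Figure D1:**
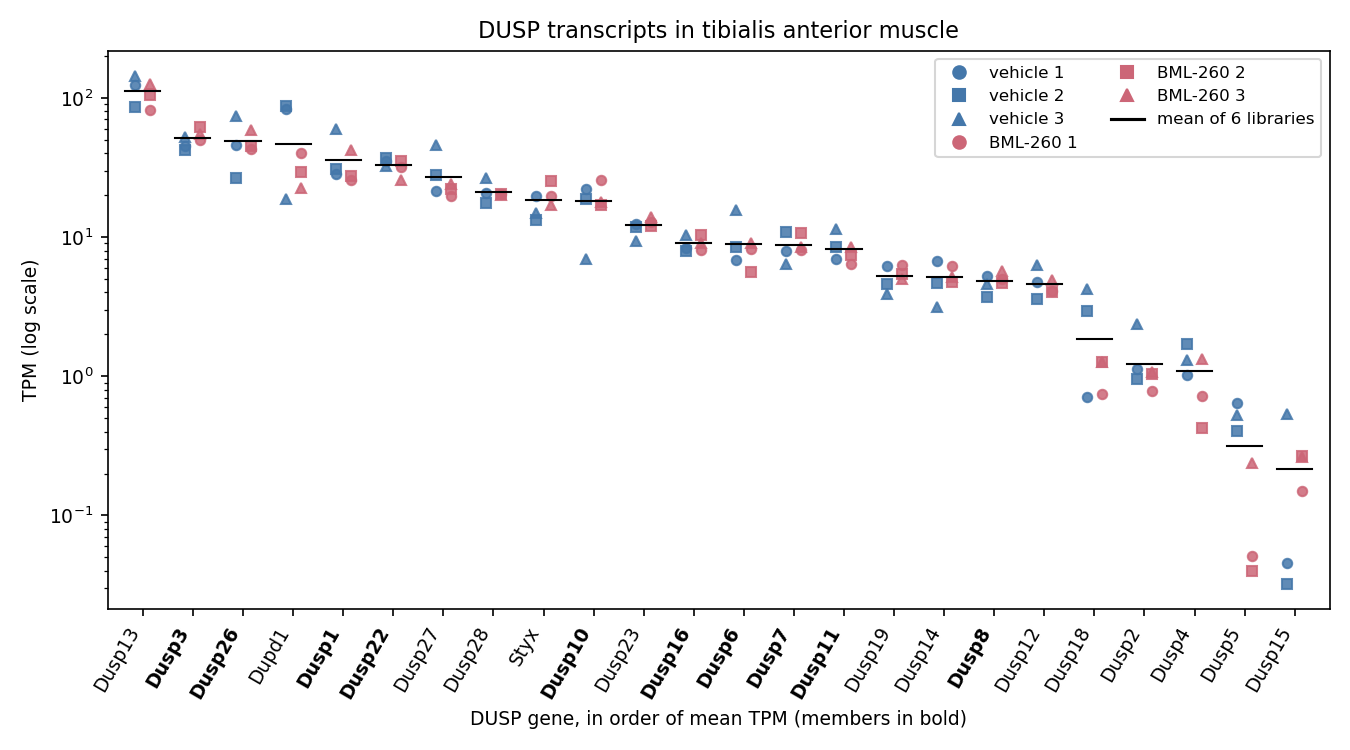
TPM (log axis) of the 24 DUSP genes in each of the 6 TA libraries, ordered by mean TPM, with the mean of the 6 libraries as a line and the 10 members in bold. Dusp22 sits 6th with values from 25.6 to 36.9, Dusp13 leads with a mean of 111, and Dusp15 is last with a mean of 0.216.

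Levels of Dusp22 between treatments were compared on counts. Normalized counts (counts divided by DESeq2 size factors, which bring libraries to one depth) were 1779, 1503 and 916 in vehicle replicates 1, 2 and 3 and 1775, 1751 and 1396 in BML-260 replicates 1, 2 and 3. Vehicle replicate 3 was the lowest library, at 55.8% of the mean of the other 5, and the remaining vehicle libraries lay within or beside the range with BML-260. The log2 fold change of BML-260 over vehicle was 0.23 (SE 0.24, 95% interval -0.33 to 0.78, Benjamini-Hochberg adjusted p = 0.823 in the quasi-likelihood test of edgeR). The interval allows a fold between 0.798 and 1.71, and the raw counts behind it were 1137 to 2058 a library. Without vehicle replicate 3 the log2 fold change was -0.01.

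The direction of the difference in Dusp22 depended on the scale. In limma's trend test on log2(TPM + 1) the log2 fold change was -0.18 (SE 0.18, adjusted p = 0.899 with Benjamini-Hochberg adjustment), where the median of all genes on that scale was -0.10. With the TPM of the libraries scaled by the median of ratios, which brought the median of all genes to 0.003, it was -0.03. TPM divides reads by the length of the transcripts they were assigned to, and counts do not. The ratio of TPM to CPM (counts per library total, on the same scale) for Dusp22, relative to the median gene of the same library, was 2.303 in vehicle replicate 2 and 2.27 in vehicle replicate 3, and 1.74, 1.75, 1.73 and 1.60 in vehicle replicate 1 and BML-260 replicates 1, 2 and 3. This ratio had a range of 0.52 on the log2 scale over the 6 libraries, wider than in 97.5% of 11872 genes with a CPM of at least 1 in every library, whose median range was 0.02. The next widest member was Dusp3, with a range of 0.22, and the other 8 members had ranges of at most 0.0744.

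The higher ratio was seen in 2 of 3 vehicle libraries and in 0 of 3 with BML-260, and vehicle replicate 1 was like the treated libraries, so it did not separate the groups. GENCODE vM21 lists 5 transcripts of Dusp22, of which 3 are protein coding with lengths from 1161 to 3015 bases, and no exon of another gene overlaps them. Levels of single transcripts were not analysed here, and the source of the change in ratio was not tested.

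**Figure D2:**
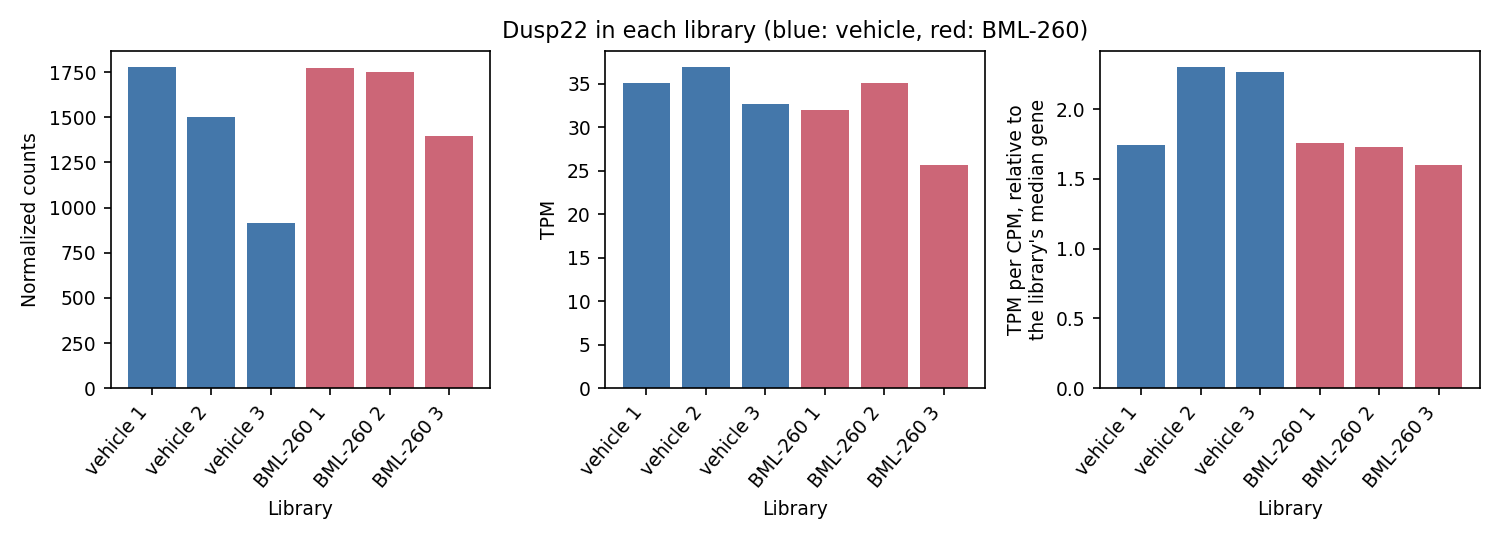
Dusp22 in each library as normalized counts (left), TPM (middle) and TPM per CPM relative to the median gene of that library (right), with blue bars for vehicle and red bars for BML-260. Vehicle replicate 3 is lowest in counts (916) but not in TPM (32.7), and vehicle replicates 2 and 3 have the 2 highest ratios (2.303 and 2.27).

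Across the 10 members, 0 passed a fold of 1.3 with an unadjusted p under 0.05, where 5.75% of the 16188 tested genes did. After adjustment, 0 of the 10 and 0 of the 16188 genes had a p under 0.05 in edgeR, beside 0 members and 966 genes (5.97%) with an unadjusted p under 0.05. Without vehicle replicate 3 it was again 0 of 10 members that passed, and 3.98% of all tested genes. The adjusted p of the members lay between 0.788 and 0.895 by that edgeR test. The log2 fold change was above 0 in 7 members and below 0 in 3, with a median of 0.21 where the median of all tested genes was 0.00. It was above 0 in 5 members and below 0 in 5 without vehicle replicate 3, with a median of 0.03. The raw counts behind these values ran from 412 to 6719 in a library, so that counting error alone was at most 4.93% of any value. A count of 0 members with unadjusted p under 0.05 does not show that the levels were equal, and the intervals below give what the data allow.

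The atypical members beside Dusp22 are Dusp3, Dusp26 and Dusp11. Dusp3 (VHR), which dephosphorylates ERK and JNK, had 5308, 5092 and 3978 normalized counts with vehicle and 5794, 6146 and 5586 with BML-260. All 3 treated libraries were above all 3 vehicle libraries. For Dusp3 this gave a log2 fold change of 0.28 (SE 0.16, 95% interval -0.08 to 0.65, edgeR adjusted p = 0.788), and one of 0.16 without vehicle replicate 3. On the unscaled TPM the libraries of Dusp3 overlapped, with 44.8, 42.5 and 52.0 with vehicle and 49.5, 62.1 and 55.3 with BML-260. On TPM scaled by the median of ratios, a setting added after the data were seen, its log2 fold change was 0.41 (unadjusted p = 0.0154 from limma). That value includes the TPM per CPM of Dusp3 relative to the median gene, which averaged 0.787 with vehicle and 0.856 with BML-260, with overlapping groups.

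Dusp26, a phosphatase known from brain and skeletal muscle, had 2373, 1437 and 2792 normalized counts with vehicle and 2427, 2293 and 2968 with BML-260. Here vehicle replicate 2 was the low library, and vehicle replicate 3 was the second highest of the 6. The log2 fold change was 0.22 (95% interval -0.33 to 0.77), and it was 0.42 without vehicle replicate 3 and -0.01 without vehicle replicate 2. Dusp11, which removes phosphates from the 5′ end of RNA, had 1270, 1618 and 1483 normalized counts with vehicle and 1268, 1298 and 1468 with BML-260, with overlapping groups. Its log2 fold change was -0.12 (95% interval -0.45 to 0.21), with -0.21 without vehicle replicate 1 and -0.04 without vehicle replicate 2.

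The MKPs that act mainly on JNK and p38 are Dusp8, Dusp10 and Dusp16. Dusp8 had 711, 526 and 463 normalized counts with vehicle and 747, 616 and 766 with BML-260. Vehicle replicate 1 lay within the treated range, and the other two vehicle libraries below it. This corresponds to a log2 fold change of 0.32 (SE 0.19, 95% interval -0.12 to 0.76, edgeR adjusted p = 0.788), and without vehicle replicate 1 it was 0.52 with an unadjusted p of 0.0183. It was 0.19 without vehicle replicate 3, with an unadjusted p of 0.293 in edgeR.

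Dusp10 (MKP-5) varied most between libraries, with 1752, 1556 and 396 normalized counts with vehicle and 2229, 1305 and 1387 with BML-260. Vehicle replicate 3 held 24.1% of the mean of the other 5 libraries. BML-260 over vehicle was 0.41 on the log2 scale for Dusp10, with a wide 95% interval of -0.69 to 1.505, and it was -0.02 without vehicle replicate 3. Dusp16 (MKP-7) was the steadiest, with 1225, 1216 and 1103 normalized counts with vehicle and 1285, 1456 and 1256 with BML-260. Its groups did not overlap, though only by a small gap, and its log2 fold change was 0.17 (95% interval -0.13 to 0.47), or 0.11 without BML-260 replicate 2. In unscaled TPM the groups of Dusp16 overlapped. These 3 genes summed to 29.4 ± 6.97 TPM in the vehicle group and 34.5 ± 3.73 TPM in the BML-260 group (SD, n = 3 each).

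Dusp3 and Dusp16 were thus 2 of 10 members with groups that did not overlap in normalized counts, where 12.2% of all tested genes had such groups.

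The remaining MKPs are Dusp1, an immediate early gene whose nuclear product silences p38 and JNK and which glucocorticoids also induce, and the cytoplasmic ERK phosphatases Dusp6 and Dusp7. Dusp1 had 1558, 1796 and 2347 normalized counts with vehicle and 1538, 1472 and 2266 with BML-260. The third replicate was the high library in both groups. Between the groups Dusp1 had a log2 fold change of -0.11 (95% interval -0.62 to 0.39, edgeR adjusted p = 0.895), with 0.07 without vehicle replicate 3 and -0.34 without BML-260 replicate 3.

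Dusp6 (MKP-3), a target gene of ERK signaling, had 539, 709 and 892 normalized counts with vehicle and 711, 435 and 706 with BML-260. Its groups overlapped, with a log2 fold change of -0.21 (95% interval -0.78 to 0.35), which was -0.02 without vehicle replicate 3 and -0.01 without BML-260 replicate 2. Dusp7 had 726, 1045 and 420 normalized counts with vehicle and 805, 949 and 752 with BML-260, with a log2 fold change of 0.19 (95% interval -0.48 to 0.87). For Dusp7 it was -0.08 without vehicle replicate 3 and 0.54 without vehicle replicate 2. Although both act on ERK, vehicle replicate 3 was the highest library for Dusp6 and the lowest for Dusp7, and their sum was 18.8 ± 3.68 TPM in the vehicle group and 16.7 ± 0.711 TPM in the BML-260 group (SD, n = 3 each).

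**Figure D3:**
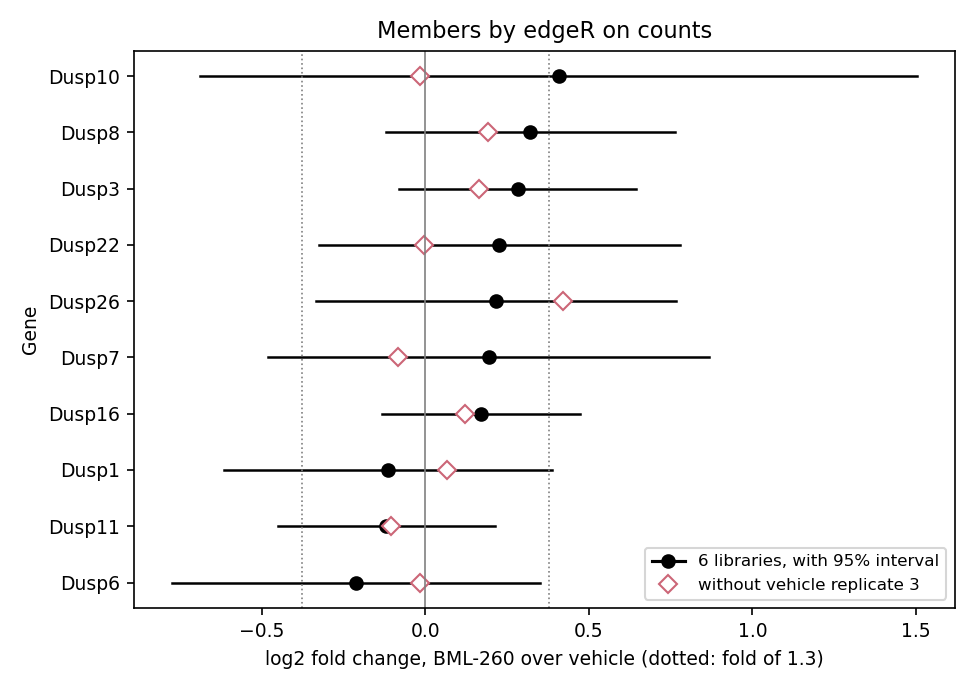
Log2 fold change of BML-260 over vehicle for the 10 members from edgeR on counts (filled circles, bars are 95% intervals) and without vehicle replicate 3 (open diamonds). Every interval includes 0, and the diamonds of Dusp22 (-0.01), Dusp10 (-0.02) and Dusp6 (-0.02) lie on the 0 line.

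Vehicle replicate 3 was at one end of the range for most members. It was the lowest library of the 6 for 6 of the 10 members (Dusp22, Dusp3, Dusp7, Dusp8, Dusp10 and Dusp16) and the highest for 2 (Dusp1 and Dusp6). Over all tested genes, it was the lowest library for 31.7% and the highest for 31.8%. Leaving it out moved the log2 fold change more than leaving out any other library for 3 of the 10 members (Dusp22, Dusp3 and Dusp10). The macrophage, neutrophil, erythroid, adipocyte and Schwann cell markers were also highest in that library, as were all 17 tested immediate early genes and 11 of 12 glucocorticoid-induced genes. Of the 8 muscle fiber markers, 7 were lowest there. The part of all these in the values of the members was not tested. In TPM, which was not scaled by size factors, the members summed to 274 in vehicle replicate 3 and to between 195 and 240 in the other 5 libraries. Dusp1 and Dusp26 held 134 of that sum, against 57.6 to 101 elsewhere, and the other 8 members summed to 140 in that library and to between 138 and 153 in the others.

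**Figure D4:**
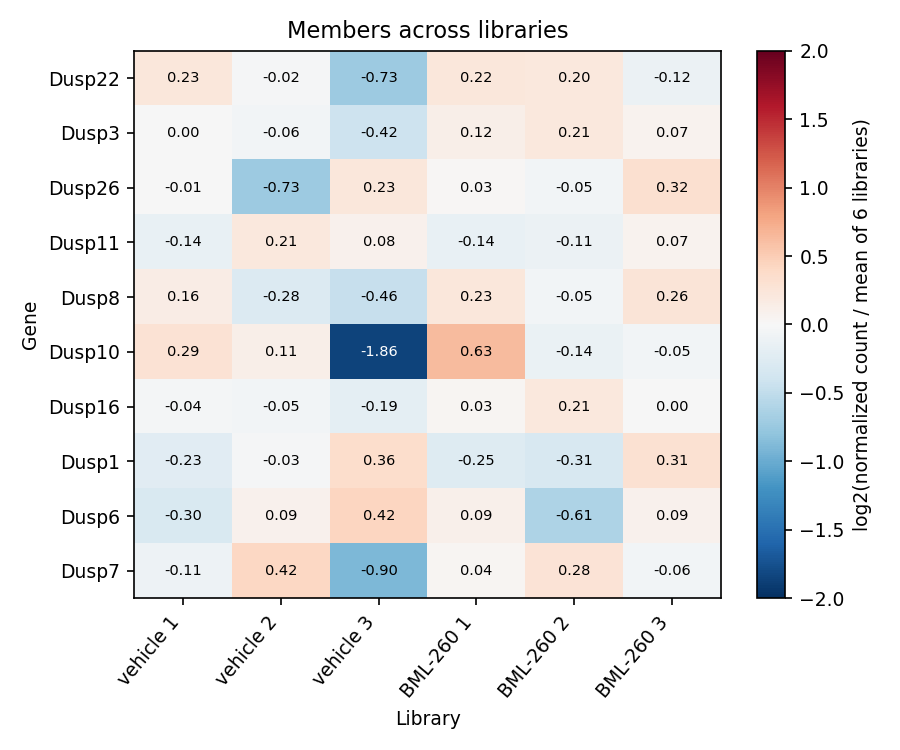
Normalized count of each member in each library as log2 of its ratio to the mean of the 6 libraries, with red for values above that mean and blue for values below. Vehicle replicate 3 holds the lowest value of the panel, -1.86 for Dusp10, and values of -0.73 for Dusp22 and 0.36 for Dusp1.

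The summed TPM of related transcripts was compared in each class of the family, on the unscaled TPM on which the median of all genes was -0.10. For the 9 typical MKPs it was 81.8, 83.8 and 108 with vehicle and 82.1, 77.5 and 95.02 with BML-260. The means were 91.1 ± 14.4 and 84.9 ± 9.09 (SD, n = 3 each), and they differed by -6.22 (exact permutation test, 2-sided, p = 0.6). For the 15 atypical DUSPs it was 434, 375 and 448 with vehicle and 343, 380 and 388 with BML-260, a difference of -48.1 (exact permutation test, 2-sided, p = 0.3), and of -44.1 (exact permutation test, 2-sided, p = 0.3) with Dusp22 left out of the sum. Dupd1 alone, with a mean of 63.2 TPM with vehicle and 30.6 with BML-260, made up -32.6 of the atypical difference. On another scale, that of normalized counts in edgeR, the log2 fold change was above 0 in 10 of the 15 atypical genes. Its median over the 15 was 0.22, or 0.03 without vehicle replicate 3. In counts per library total the differences of the sums were -0.16 for the typical MKPs and -25.2 for the atypical DUSPs (exact permutation tests, 2-sided, p = 1 and p = 0.5). The 10 members held 41.1, 42.6 and 49.3% of the summed DUSP TPM with vehicle and 49.6, 49.4 and 49.7% with BML-260. These groups were apart by a small gap (exact permutation test, 2-sided, p = 0.1). The summed TPM of the members differed by -1.37 and that of all DUSP genes by -54.3 (exact permutation tests, 2-sided, p = 0.9 and p = 0.2). With 3 libraries against 3, the smallest p that this test can give is 0.1.

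Dusp22 made up 6.80, 8.06 and 5.88% of the summed DUSP TPM with vehicle and 7.53, 7.67 and 5.30% with BML-260. The groups overlapped and their means differed by -0.08 percentage points (exact permutation test, 2-sided, p = 1). As a share of summed DUSP counts it was 4.55 ± 1.05% with vehicle and 5.21 ± 0.736% with BML-260 (SD, n = 3 each), a difference of 0.66 percentage points in the other direction (exact permutation test, 2-sided, p = 0.5).

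Among the 14 DUSP genes that are not members, 1 passed the fold of 1.3 with an unadjusted p under 0.05, where 5.75% of all tested genes did, and without vehicle replicate 3 it was 3 of 14 (Dusp5, Dupd1 and Dusp15), where 3.98% did. The 1 was Dusp5, a nuclear phosphatase of ERK and a target of ERK signaling, which is named here after its values were seen. It had raw counts of 35, 18 and 27 with vehicle and 4, 3 and 10 with BML-260, and the groups did not overlap. The log2 fold change was -2.06 (SE 0.65, edgeR adjusted p = 0.699) at a mean of 0.318 TPM, next to the bottom of the family, and it was -2.22 without vehicle replicate 3. Dupd1 had 2587, 2902 and 420 normalized counts with vehicle and 1371, 885 and 694 with BML-260. This is a log2 fold change of -1.005 (SE 0.60, edgeR adjusted p = 0.788), and -1.48 without vehicle replicate 3 (edgeR adjusted p = 0.0592). Dusp18 had a log2 fold change of -1.05, Styx one of 0.50, Dusp27 one of -0.33, and Dusp13, the most abundant DUSP, one of -0.01. Dusp15, also named after its values were seen, had 6, 3 and 56 raw counts with vehicle and 22, 30 and 24 with BML-260, so that vehicle replicate 3 lay above and the other vehicle libraries below all treated libraries. Its log2 fold change was 0.55 (edgeR adjusted p = 0.862), and 2.39 without vehicle replicate 3 (SE 0.66, unadjusted p = 0.0042, edgeR adjusted p = 0.441).

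The profile of Dusp22 over the 6 libraries was described by Pearson's r of log2 normalized counts, which rests on 6 libraries that share vehicle replicate 3. The genes most like it were Commd1, an adaptor of copper and ubiquitin regulation (r = 0.997), Ndufb2, a subunit of mitochondrial complex I (r = 0.997), and Gm11816 (r = 0.995). They were picked as the highest among all tested genes, and 1307 genes (8.07%) had an r above 0.9. Among the members the most alike was Dusp10 (r = 0.932) and among the other DUSP genes Dusp19 (r = 0.960). Without vehicle replicate 3 these were 0.479 and 0.770. The least like among the members was Dusp1, with r = -0.875 over 6 libraries and -0.953 over 5.

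The kinases on which the MKPs act were read at the same threshold. Of the 9 tested MAP kinases (ERK, JNK and p38 genes), 0 were higher, where 0.896% of all tested genes were, and 0 were lower, where 4.86% were. Their median log2 fold change was 0.19, or 0.08 without vehicle replicate 3. Of the 7 MAP kinase kinases, which phosphorylate and activate them, 0 passed, where 5.75% of all tested genes did. Their median was 0.23, with vehicle replicate 3 as the lowest library for all 7 and a median of 0.12 without it. For lists this short, a count of 0 is near the share of all genes and does not show that the levels were equal.

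Genes known to respond to these kinases were lower in part, read against 4.86% of all tested genes lower at the threshold. Among the 11 tested ERK feedback genes (Sprouty, Spred and Etv genes and others), 0 were higher and 1 lower, Ier3, with a log2 fold change of -1.17. Ier3 was at -0.42 without vehicle replicate 3 (unadjusted p = 0.0834 from edgeR), and 0 of the 11 then passed. Among the 17 tested immediate early genes, transcription factors and other genes that respond within minutes of a stimulus and are not members, 0 were higher and 6 lower, with a median log2 fold change of -0.81. The 4 with the smallest p were Junb (-2.16), Fosl2 (-0.81), Zfp36 (-0.81) and Fos (-2.18). Without vehicle replicate 3, 2 of the 17 passed, Junb (-0.85) and Fosl2 (-0.40), and the median was -0.14. Among the 12 glucocorticoid-induced genes 0 were higher and 2 lower, Mt2 (-4.20) and Errfi1 (-0.75), with a median of -0.57, and of 0.04 without vehicle replicate 3, where Mt2 was at -1.34 and Errfi1 at -0.38. Dusp1, which is known to be induced along with both groups, had the log2 fold change of -0.11 given above.

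In all, 4 members share exonic sequence with a gene on the opposite strand in GENCODE vM21: Dusp1 with Ergic1, Dusp3 with Gm20659, Dusp8 with Gm32786 and Dusp11 with Gm19265. The libraries were made with a kit that keeps strand, but whether the counting used it is not given in the sources used here, so reads of these pairs may not be told apart.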

How the data were processed

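Libraries were prepared from TRIzol-extracted total RNA of TA muscle with the TruSeq Stranded Total RNA Gold kit, 1 library for each sample. The reads were trimmed by the authors with Trimmomatic 0.38, mapped with HISAT2 2.1.0 and Bowtie2 2.3.4.1 to mm10, and assembled with StringTie 2.1.3b. Which annotation was used, and how strand and multi-mapped reads were treated, is not given in the sources used here. The authors deposited raw counts per gene in 1 table and, for each library, TPM values scaled for transcript length and library total, with replicates not pooled. Labels give replicate numbers only, so that the spread between libraries of a group is taken as that between mice.

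Counts were tested with edgeR 4.0.16 in R 4.3.3: filterByExpr removed low genes, TMM scaled the libraries, and the groups were compared by the quasi-likelihood F-test with Benjamini-Hochberg adjustment over all tested genes. The standard error was taken as the size of the log2 fold change over the square root of F. A gene passed when its fold reached 1.3 and its unadjusted p was under 0.05. Normalized counts use size factors of DESeq2 1.42.0. Principal components used 500 genes of highest variance. For sums and shares, all 20 assignments of the 6 libraries to the groups were enumerated in an exact permutation test. Levels of different genes were compared in TPM only. The test was tried on simulated data with 200 changed genes, at an adjusted p under 0.05. At a true log2 change of 1 it found 45 of them (22.5%), with 6 wrong calls. At a true log2 change of 2 it found 161 (80.5%), with 15 wrong calls. The simulated libraries of a group shared the same mean for each gene and varied independently from gene to gene. None stood apart over many genes as vehicle replicate 3 did, so these rates may not hold for the libraries studied here. Changes as small as those of the members were not simulated.

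The alternatives tried were normalization by RLE or by the upper quartile, dropping the filter, requiring 10 counts in every library, blocking on replicate, robust edgeR, DESeq2's Wald test, limma 3.58.1 on log2(TPM + 1) and log2(TPM + 0.1), and each library left out. TPM scaled by the median of ratios was added after the data were seen. The members, the gene lists and the rule for naming genes were chosen with earlier results of these data known. All 10 members were named, other DUSP genes with a mean of at least 1 TPM or near Dusp22 in rank, at most 4 genes of a list past the threshold, and the genes with the highest correlation to Dusp22. Intervals come from the fit on counts and cover both the spread between libraries and counting error. The size of counting error alone is also given.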

Additional observations from a re-analysis of the deposited data

How the results depend on the processing

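Without vehicle replicate 3 the log2 fold change of Dusp22 moved from 0.23 to -0.00537, with a range of -0.00537 to 0.442 over the 6 fits with 1 library omitted. In those fits the ranges were -0.338 to 0.0660 for Dusp1, -0.0828 to 0.542 for Dusp7, -0.0153 to 0.754 for Dusp10 and -0.0131 (without vehicle replicate 2) to 0.421 for Dusp26, each with the other sign in at least 1 fit (Dusp1 was 0.00475 without BML-260 replicate 2). Dusp3, Dusp6, Dusp8, Dusp11 and Dusp16 kept their sign in all 16 alternatives, though with ranges over those fits of 0.164 to 0.366, -0.375 to -0.00904, 0.191 to 0.522, -0.205 to -0.0369 and 0.106 to 0.211. On TPM, Dusp22 had a log2 fold change of -0.18 with a pseudocount of 1 (-0.179), -0.18 with 0.1 (-0.184), and -0.0306 after scaling by the median of ratios, which was added after the data were seen. The number of members past the threshold was 0 in all alternatives except 1 with scaled TPM (Dusp3, 0.41, unadjusted p = 0.0154 from limma) and 1 without vehicle replicate 1 (Dusp8), so its range over single libraries left out was 0 to 1. The median of the members ranged from 0.03 to 0.24 over those fits. Genes past the threshold numbered 931 by edgeR, 503 with limma on log2(TPM + 1), 1416 without a filter, and 503 (without BML-260 replicate 2) to 2223 (without vehicle replicate 1) with 1 library left out. Genes of the 5 pathway lists past it numbered 9, and 14 without a filter, 2 and 3 on log2 TPM with pseudocounts of 1 and 0.1, 5 on scaled TPM, and 3 to 20 with 1 library left out. DESeq2's Wald test gave an adjusted p under 0.05 to 95 genes, none of them a member, where edgeR gave 0. The rank of Dusp22 was 5 by median TPM, 4 among the 10 members, and 5 to 6 with 1 library left out, with 5 without vehicle replicate 3. The difference in its share of DUSP TPM was 0.66 percentage points on counts and 0.72 between group medians, and ranged from -0.60 to 0.68 with 1 library left out. The difference in summed TPM ranged from -11.3 to 2.07 for the typical MKPs, with the sign changed without vehicle replicate 3, and from -70.1 to -33.5 for the atypical DUSPs. The causes of these changes were not tested.

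The replicate numbers are shared by both groups, but the labels do not say that they mark a pair. The deviations of libraries with the same number from their group means had correlations across genes of 0.27, 0.05 and 0.14 for numbers 1, 2 and 3. Each library correlated best with its own number. Deviations within a group sum to 0, so these correlations depend on each other, and whether they mark pairs was not tested. With a replicate block, the log2 fold change of Dusp22 was 0.27 (unadjusted p = 0.144 from edgeR), 0 members and 1057 genes passed the threshold, and the block changed no call of a member.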
